A study of Mus musculus with 96 samples.

Results

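The integrated stress response was followed through 10 genes of the 24057 listed in single-cell RNA-seq of EL4 cells, a T-lymphoma line whose source strain is C57BL/6 in the labels and C57BL/6 N in the study's methods. The genes were chosen by symbol, with earlier results of these data known: Atf4, Ddit3, Atf5, Atf3, Trib3, Chac1, Sesn2, Ddit4, Asns and Fgf21. Sesn2 and Fgf21 were chosen because they are lower in both cultures infected with shRNA against Ctcf, so their levels are described without a test. The 4 cultures compared were all EL4 cells infected with viral particles that carried an shRNA and GFP. The WT cultures, shLuc #1 and shLuc #2, received an shRNA against luciferase, and the CTCF-KD cultures, shCTCF #1 and shCTCF #2, received an shRNA against Ctcf, the gene of a DNA-binding architectural protein. Cultures with the number 1 formed experiment 1 and cultures with the number 2 formed experiment 2. The study's methods list 2 hairpin sequences against Ctcf without stating which culture received which. The hairpin may therefore differ between the experiments, and effects of hairpin and experiment could then not be told apart. A separate microfluidic circuit was used for each culture, so effects of culture, circuit and knockdown within an experiment cannot be told apart. Of 96 cells, 95 had at least 3000 genes with a value above 0 and were kept, 47 WT and 48 CTCF-KD.

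In the integrated stress response, kinases that sense misfolded proteins, amino acid shortage, heme shortage or double-stranded RNA phosphorylate the translation factor eIF2 alpha. General translation then slows, while the Atf4 mRNA is translated better through its upstream open reading frames, so that much of the control of ATF4 is not visible in its mRNA. ATF4 binds C/EBP-ATF response elements and induces genes of amino acid supply, and with prolonged stress also Ddit3, which encodes CHOP, a factor linked to cell death.

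The letters of the C/EBP-ATF response element, TGATGNAA read on either strand, were searched in promoters of 300 bases, 250 before to 50 after each start site in RefSeq on GRCm38.p6. They were present in promoters of 5 of the 10 genes and of 4.51% of 27025 genes. The matches are shown because they are the sequence feature that ATF4 target genes are known for, with the element in capitals and each stretch read 5′ to 3′ on the strand of its gene.
Chac1, chr2:119351033-119351072, plus strand: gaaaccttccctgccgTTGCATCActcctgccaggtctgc
Fgf21, chr7:45615606-45615645, minus strand: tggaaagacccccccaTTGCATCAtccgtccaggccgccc
Atf3, chr1:191183420-191183459, minus strand: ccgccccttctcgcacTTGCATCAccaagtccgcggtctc
Asns, chr6:7693210-7693248, minus strand: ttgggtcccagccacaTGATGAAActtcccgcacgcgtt
Trib3, chr2:152344029-152344056, minus strand: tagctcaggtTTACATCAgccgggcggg
Chac1, Fgf21 and Atf3 shared the same 8 letters, TTGCATCA. Counted from the RefSeq start site, the element began at position −193 in Chac1, −139 in Fgf21, −110 in Atf3 and −23 in Asns, while in Trib3 it began after that start, at position 15. The gene spans given below come from GENCODE, whose starts can differ, and by those spans the Trib3 element lies before the gene while the Asns and Atf3 elements lie inside it. No match was found in these windows of Atf4, Ddit3, Sesn2, Ddit4 or Atf5, and the cyclic AMP response element TGACGTCA, present in 2.03% of genes, was found in none of the 10. A match is a description of letters, and the genes that held it did not share one pattern of expression, as described below.

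The cells held between 41591 and 405404 reads each, with 3232422 reads in all in the culture labelled shCTCF #2 and 5493040 to 6192121 in the others, so that culture gives the least precise values. The median number of genes per cell was 4771 and 4635 in the WT cultures and 6172.5 and 5656 in the CTCF-KD cultures. Ctcf itself was at 60.3 and 37.1 TPM in WT, 15.96 TPM in shCTCF #1 and 44.9 TPM in the culture labelled shCTCF #2. The Ctcf mRNA was therefore lower in experiment 1 and not in experiment 2, and every direction below that rests on the culture labelled shCTCF #2 carries that limit. Of 10 T cell markers searched, 8 were among the listed genes, while Trbc1 and Trbc2 were not. All 8 had reads in every culture, and their summed mean was 7757 and 8211 TPM in WT against 5673 and 5784 TPM in CTCF-KD. Of B cell genes, Cd79a had culture means of 0 to 4.13 TPM, and Cd79b, Ms4a1 and Pax5 were at 0 in every cell. Of 5 myeloid genes, Lyz2 was at 0 in every cell, Csf1r was at 0 to 1.41 TPM and Itgam at 0.119 to 2.24 TPM. Cd68 was at 27.6 to 52.01 TPM and Fcer1g, shared with some lymphoid cells, at 224 to 470 TPM. Of 5 erythroid genes searched, 3 were among the listed genes, and these were at 0. The part of these differences in the results below was not tested.

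Atf4, the transcription factor at the centre of the response (chromosome 15, 80255184 to 80257541, plus strand), had reads in 94 of 95 cells. Among cells of shLuc #1 it ranged from 11.6 to 1090 TPM with a median of 387 TPM, and in shLuc #2 from 5.15 to 1328 TPM with a median of 424 TPM. In shCTCF #1 it ranged from 0 to 694 TPM with a median of 191 TPM, and in the culture labelled shCTCF #2 from 13.7 to 646 TPM with a median of 282 TPM. The ranges of single cells overlapped widely, while the culture means did not overlap, at 434 and 472 TPM in WT against 252 and 259 TPM in CTCF-KD. Atf4 was 1.72-fold lower in experiment 1 and 1.82-fold lower in experiment 2. On the log2(mean TPM + 1) scale the difference was −0.82 (SE 0.29, 2 against 2 cultures), which did not pass the threshold (limma, Benjamini-Hochberg adjusted p = 0.610). This fit, used for every SE and adjusted p of single genes up to the closing sections, does not pair the cultures by experiment. In the paired fit the limma adjusted p of Atf4 was 0.245, also above the threshold. Of all 11980 genes tested, limma called 0% lower and 0% higher at the adjusted threshold of 0.05, with 0.585 as the lowest adjusted p of any gene. Without adjustment, 338 genes (2.82%) were lower and 574 (4.79%) higher at p under 0.05. With the mean of log2(TPM + 1) over cells in place of the log2 of the mean, 44 genes were called higher and 2 lower.

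Ddit3, which encodes CHOP (chromosome 10, 127290774 to 127296288, plus strand), had a mean of 437 TPM in shLuc #1, 121 TPM in shLuc #2, 69.7 TPM in shCTCF #1 and 30.02 TPM in the culture labelled shCTCF #2. Both CTCF-KD cultures were below both WT cultures, by 6.28-fold in experiment 1 and 4.05-fold in experiment 2, and both WT cultures also differed from each other. The difference was −2.31 on the log2 scale (SE 0.70, limma adjusted p = 0.588). A difference of −2 or lower was seen in 1.75% of all genes tested. It was −1.27 with the mean of log2 values over cells and −1.39 without shLuc #1. The number of cells with Ddit3 reads was much the same in all cultures, at 16 of 24, 15 of 23, 17 of 24 and 13 of 24. These shares were 66.7% (exact binomial 95% interval 44.7 to 84.4%), 65.2% (42.7 to 83.6%), 70.8% (48.9 to 87.4%) and 54.2% (32.8 to 74.4%). Where the groups separated was the level in the cells that had reads, with medians of 295 and 109 TPM in WT against 29.7 and 34.5 TPM in CTCF-KD. Over all cells, with and without reads, the medians were closer, at 18.1 and 37.01 TPM in WT against 11.9 and 16.4 TPM in CTCF-KD. After thinning each cell to 80000 reads, which left out 1 cell of shCTCF #2, Ddit3 was detected in 41.7% and 56.5% of WT cells and in 58.3% and 43.5% of CTCF-KD cells. The highest cell of each culture held between 24.3 and 42.03% of the culture's summed TPM of Ddit3.

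**Figure D1:**
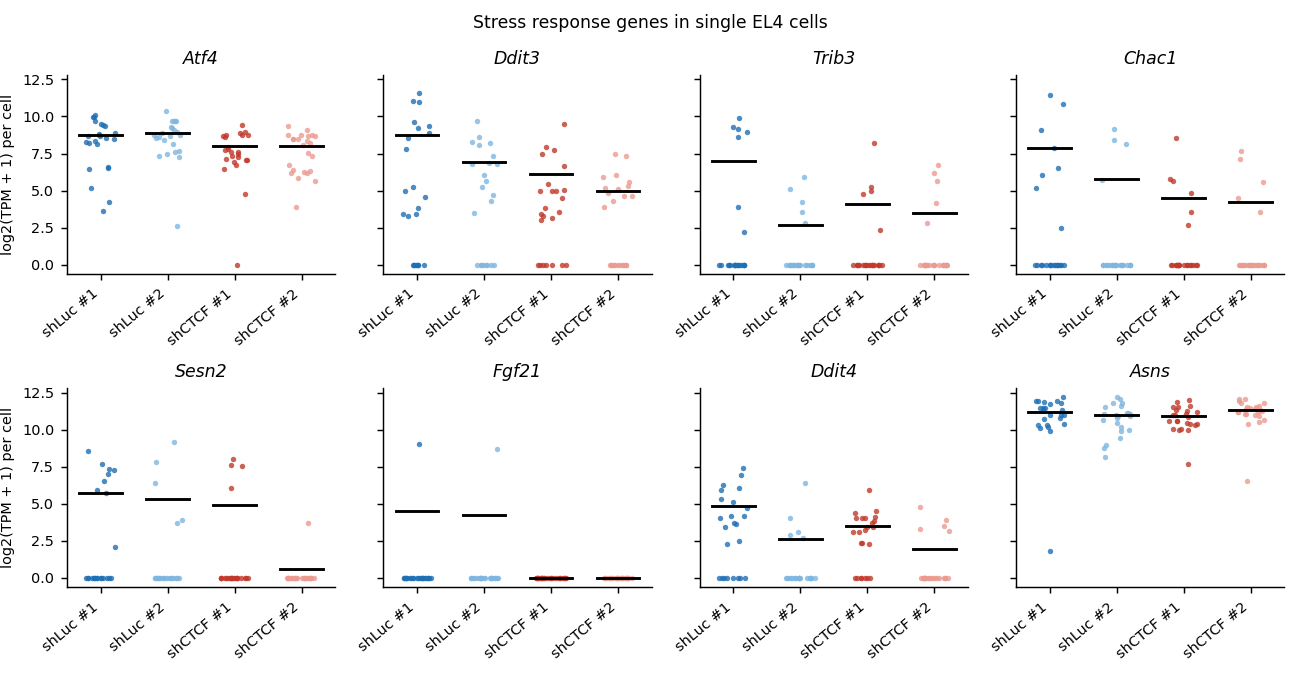
Each point is 1 cell, with log2(TPM + 1) on the y axis and the 4 cultures on the x axis, and each black line is log2 of the culture's mean TPM plus 1. Atf4 and Asns have reads in nearly every cell, Ddit3 has reads in 61 of 95 cells with the highest cells in WT, and Fgf21 rests on 1 cell in each WT culture.

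Atf5 and Atf3 encode related stress-induced transcription factors. Atf5 (chromosome 7, 44812256 to 44816658, minus strand) had 1 read in 1 cell of the culture labelled shCTCF #2 and 0 elsewhere. Atf5 shares 82 exon bases with genes on the opposite strand, so that single read cannot be placed with certainty. Atf3 (chromosome 1, 191170296 to 191218039, minus strand) had 0 reads in 95 of 95 cells. With the cells of all cultures pooled, this allows a share of up to 3.16% of cells with reads by the limit of 3 counts over the total. Within single cultures the exact binomial 95% interval reached up to 14.2 to 14.8%. Both genes were outside the filter on low values, which 8 of the 10 genes passed.

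Chac1, a glutathione-degrading enzyme induced by ATF4 and CHOP (chromosome 2, 119351229 to 119354381, plus strand), was at 235 TPM in shLuc #1, 54.4 TPM in shLuc #2, 21.6 TPM in shCTCF #1 and 17.4 TPM in the culture labelled shCTCF #2. Both CTCF-KD cultures were below both WT cultures, 10.9-fold in experiment 1 and 3.12-fold in experiment 2, with a difference of −2.49 on the log2 scale (SE 0.74, limma adjusted p = 0.585). As with Ddit3, the number of cells with reads did not follow the condition, at 8, 4, 6 and 5 cells. In those cells the median was 165 and 314 TPM in WT against 38.5 and 47.3 TPM in CTCF-KD. The highest cell held 45.6 to 71.7% of each culture's sum, so each mean of Chac1 rests on few cells. The difference was −0.68 with the mean of log2 values and −1.44 without shLuc #1.

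Trib3, a pseudokinase that CHOP and ATF4 induce and that restrains ATF4 activity (chromosome 2, 152337422 to 152344032, minus strand), was at 126 TPM in shLuc #1, 5.51 TPM in shLuc #2, 16.3 TPM in shCTCF #1 and 10.4 TPM in the culture labelled shCTCF #2. The lowest and the highest culture were both WT, so the groups overlapped. Trib3 was 7.73-fold lower in CTCF-KD in experiment 1 and 1.88-fold higher in experiment 2, with a difference of −1.04 (SE 1.36, limma adjusted p = 0.886). Reads were found in 7, 5, 5 and 5 cells, and the median in those cells was 486, 17.4, 30.8 and 48.8 TPM. Without shLuc #1 the difference turned to 1.11, so the lower value in CTCF-KD rests on that culture.

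Sesn2, a sestrin that restrains mTORC1 signalling under stress (chromosome 4, 132492032 to 132510501, minus strand), was at 51.7 TPM in shLuc #1, 39.3 TPM in shLuc #2, 29.3 TPM in shCTCF #1 and 0.515 TPM in the culture labelled shCTCF #2. The 4 cultures ordered by condition, and the cells with reads were 9, 5, 4 and 1. In shCTCF #1 the median in cells with reads, 191 TPM, was above the 127 and 83.8 TPM of the WT cultures, while in the culture labelled shCTCF #2 the single cell was at 12.4 TPM with 3 reads. The difference in experiment 1 was −0.80 and in experiment 2 was −4.73 on the log2 scale. In experiment 1 the share of cells with reads was 37.5% in WT (exact binomial 95% interval 18.8 to 59.4%) and 16.7% in CTCF-KD (4.74 to 37.4%). These intervals overlap, and the values only describe a gene that was chosen for being lower.

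Fgf21, a secreted stress hormone (chromosome 7, 45613886 to 45615490, minus strand), had reads in 1 of 24 cells of shLuc #1, at 514 TPM with 99 reads, and in 1 of 23 cells of shLuc #2, at 422 TPM with 59 reads. No cell of either CTCF-KD culture had a read. Each WT mean of Fgf21 therefore rests on 1 cell.

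Ddit4, an mTORC1 inhibitor also known as REDD1 (chromosome 10, 59949669 to 59951834, minus strand), was at 28.4 TPM in shLuc #1, 5.10 TPM in shLuc #2, 10.3 TPM in shCTCF #1 and 2.87 TPM in the culture labelled shCTCF #2. Its detection followed the experiment and not the condition, with 16 of 24 and 17 of 24 cells in experiment 1 against 5 of 23 and 5 of 24 cells in experiment 2. Thinned to 80000 reads, the shares were 58.3% in both cultures of experiment 1 and 8.70% and 17.4% in those of experiment 2. Ddit4 was 2.76-fold lower in CTCF-KD in experiment 1 and 1.78-fold lower in experiment 2. On the log2 scale these differences were −1.38 and −0.66. The 2 conditions overlapped across experiments, with a difference of −1.02 (SE 1.12, limma adjusted p = 0.869) in the fit without pairing. It became 0.11 without shLuc #1, which leaves WT with experiment 2 only and CTCF-KD with both experiments. That value therefore mixes the difference between conditions with the difference between experiments.

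**Figure D2:**
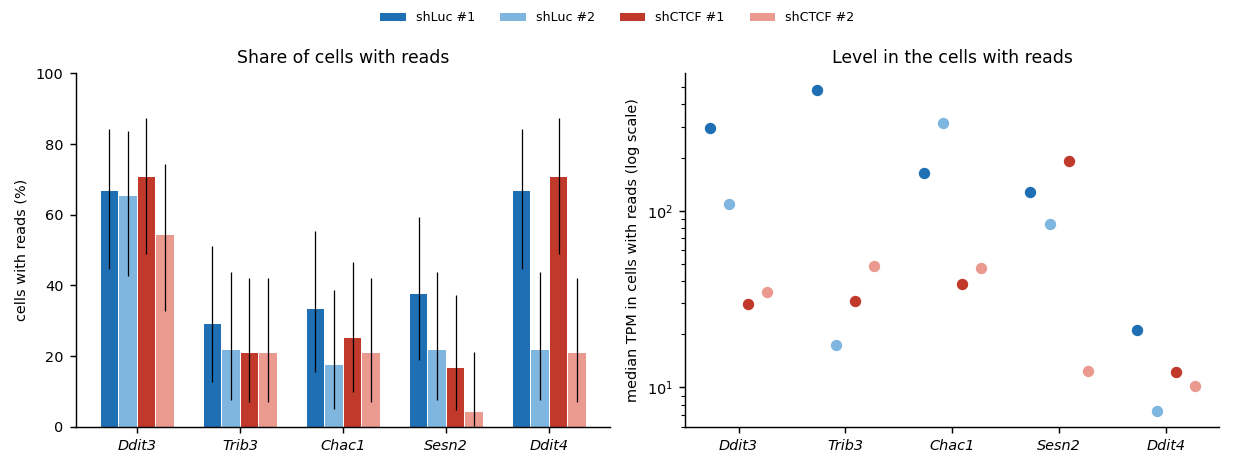
Left, the percentage of cells with reads per culture, with exact binomial 95% intervals as error bars; right, the median TPM in the cells with reads on a log axis, one point per culture. Ddit3 has similar shares in all cultures and medians of 295 and 109 TPM in WT against 29.7 and 34.5 TPM in CTCF-KD, while the shares of Ddit4 separate the experiments.

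Asns, the asparagine synthetase and a classical ATF4 target (chromosome 6, 7675169 to 7693254, minus strand), was the most abundant of the 10 genes and had reads in every cell. In shLuc #1 it ranged from 2.59 to 4727 TPM with a median of 2325 TPM, and in shLuc #2 from 292 to 4757 TPM with a median of 1980 TPM. In shCTCF #1 it ranged from 202 to 4148 TPM with a median of 1704 TPM, and in the culture labelled shCTCF #2 from 93.6 to 4412 TPM with a median of 2469 TPM. The ranges covered each other, and the culture means of 2396, 2044, 1941 and 2584 TPM put a CTCF-KD culture at both ends. The difference was 0.02 (SE 0.31, limma adjusted p = 0.997), lower by −0.30 in experiment 1 and higher by 0.34 in experiment 2.

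**Figure D3:**
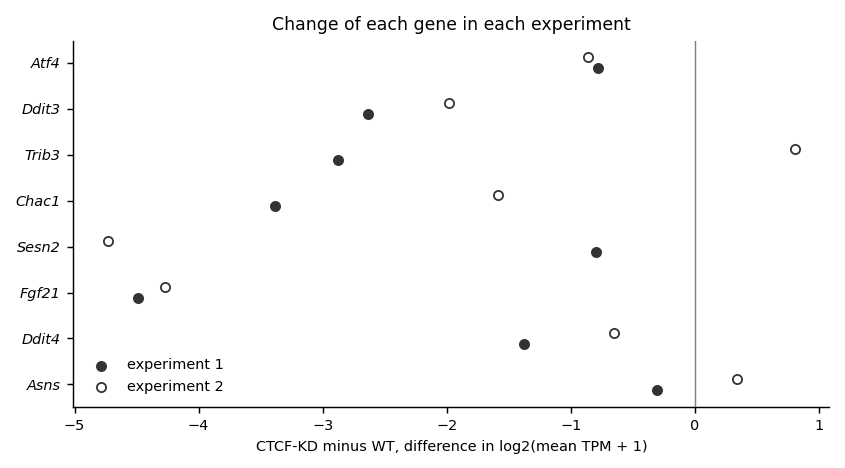
The x axis is the CTCF-KD minus WT difference in log2(mean TPM + 1), with filled points for experiment 1 and open points for experiment 2, one row per gene. Atf4, Ddit3, Chac1 and Ddit4 lie left of 0 in both experiments, Trib3 and Asns lie on both sides, and Sesn2 and Fgf21 were chosen for lying on the left.

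Leaving aside Sesn2 and Fgf21, both CTCF-KD cultures were below both WT cultures for 3 of the 6 other genes tested, Atf4, Ddit3 and Chac1. Among all genes tested, 16.9% were placed that way and 19.9% had both CTCF-KD cultures above. With 1 culture left out the condition is easier to meet, and the share of all genes is given beside each count. The count was 5 of 6 without shLuc #2 (29.8% of all genes), 3 without shLuc #1 (37.9%), 4 without shCTCF #1 (26.6%) and 4 without the culture labelled shCTCF #2 (32.3%). The highest culture for Ddit3, Chac1, Trib3 and Ddit4 was shLuc #1. Taken by experiment, 4 of the 6 genes were lower in CTCF-KD in both experiments and 0 were higher in both, against 26.7% and 30.1% of all genes tested.

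Within cultures the sparse genes met in a few cells. Ddit3, Trib3 and Chac1 all had reads in 4 of 24 cells of shLuc #1, 1 of 23 of shLuc #2, 1 of 24 of shCTCF #1 and 2 of 24 of the culture labelled shCTCF #2. At least 2 of them had reads in 8, 6, 9 and 6 cells, so these counts did not separate the conditions. A single shLuc #1 cell, with 361060 reads and 4384 genes, had reads of these genes and also of Sesn2 and Fgf21, with Ddit3 at 1989 TPM, Chac1 at 1821 TPM, Trib3 at 571 TPM, Fgf21 at 514 TPM and Sesn2 at 384 TPM. That cell also had Ddit4 at 169 TPM, the highest of its culture, whereas its Asns level of 2574 TPM was near the culture median. In shLuc #1, Ddit3 averaged 1081 TPM in the 8 cells with Chac1 reads and 116 TPM in the 16 without. In shLuc #2 these means were 179 and 109 TPM, in shCTCF #1 177 and 34.01 TPM, and in the culture labelled shCTCF #2 29.4 and 30.2 TPM. Spearman's rho between Ddit3 and Chac1 over cells was 0.54, 0.15, 0.47 and 0.27 in the 4 cultures, each over 23 or 24 cells of a shared circuit with many values at 0. For Asns and Ddit3 it was between −0.31 and 0.06.

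The most similar genes over cells were taken as those with the highest mean rho within the 4 cultures, for the widely detected genes. For Ddit3 they were Mars (0.50), Mrpl40 (0.43) and Bet1 (0.42). Mars, the methionyl-tRNA synthetase, is also in the list of ATF4-linked tRNA synthetases described below. It lies beside Ddit3 on the opposite strand and shares 68 exon bases with it, 3.97% of those of Ddit3. Reads of the shared stretch cannot be assigned without strand. What underlies the likeness of Ddit3 and Mars was not tested. For Atf4 the 3 genes were Fam102b (0.36), Hnrnpab (0.36) and S1pr5 (0.35), and for Asns they were Apitd1 (0.40), Cecr5 (0.38) and Nars (0.37), the asparaginyl-tRNA synthetase. These values are the highest of many and are a description.

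Variation between cells was compared as the CV of log2(TPM + 1), the SD over the mean, with both cultures of a condition pooled. Trib3, with a CV of 1.95 in WT and 2.10 in CTCF-KD, and Chac1, with 1.84 and 1.97, lay more than 1 SD above the mean CV difference of all genes, which 7.68% of 7843 genes did. That mean difference was −0.28, so the small positive differences of Trib3 and Chac1 in the pooled cells stood out against a general decrease in CV. Both genes were near the limit of 0.127. By culture, the CV of Chac1 was 1.59 and 2.26 in WT and 1.92 and 2.08 in CTCF-KD, so the conditions overlapped. For Trib3 it was 1.75 and 2.02 in WT and 2.15 and 2.09 in CTCF-KD. Atf4, Ddit3, Asns and Ddit4 lay within the limits. Sesn2 had a CV of 1.65 in WT and 3.06 in CTCF-KD, which is given without a call because the gene was chosen on the same values.

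The wider pathway was described with gene lists. In each list 0 genes passed limma at an adjusted p under 0.05, so the counts below are of genes whose culture means did not overlap between conditions, beside 16.9% lower and 19.9% higher among all genes tested. The ATF4 target genes of amino acid synthesis, amino acid transport, tRNA charging and other functions, without the 10 genes above, had 42 of 47 genes tested, of which 7 were lower and 10 higher. Their median difference was 0.16 on the log2 scale against 0.04 for all genes tested, and it was −0.12 without the culture labelled shCTCF #2. With the mean of log2 values over cells the median was 0.72 for these targets and 0.23 for all genes tested. Of 10 genes of amino acid synthesis, 0 were lower and 3 were higher. Shmt2, the mitochondrial serine hydroxymethyltransferase, was at 114 and 86.1 TPM in WT against 211 and 170 TPM in CTCF-KD (difference 0.93, SE 0.36, limma adjusted p = 0.629). Phgdh and Psph, both of serine synthesis, had differences of 0.71 and 0.99. Among 13 tRNA synthetase and tRNA export genes 3 were lower and 3 higher, with Tars, the threonyl-tRNA synthetase, at 78.5 and 45.7 TPM in WT against 144 and 246 TPM in CTCF-KD. The response element was found in promoters of 5 of the 8 genes of that list with a promoter in the table. Among them were Tars, which was higher in CTCF-KD, and Aars, with a difference of −0.82. That was the largest share of the 4 target lists. The others had it in 3 of 11 genes of amino acid synthesis, with Asns counted, 2 of 6 of transport and 2 of 10 other targets. Among all genes the share was 4.51%.

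Of 8 genes linked to CHOP and cell death, 4 were lower and 0 higher, with a median difference of −0.94. Ppp1r15a, which encodes GADD34, the subunit that directs a phosphatase to eIF2 alpha, was at 345 and 361 TPM in WT against 171 and 143 TPM in CTCF-KD (difference −1.17, SE 0.31, limma adjusted p = 0.585). Mcl1, an anti-apoptotic BCL2 family member, was at 67.3 and 114 TPM against 36.7 and 43.8 TPM. Ero1l, an oxidase of the endoplasmic reticulum, was at 922 and 387 TPM against 361 and 277 TPM. With the culture labelled shCTCF #2 left out the count of lower genes in this list was 4, beside 32.3% of all genes under that condition. The median was −0.22 with the mean of log2 values over cells and −0.18 without shLuc #1, so its size rests on the scale and on that culture. Of 8 tested partners and cofactors of ATF4, 3 were lower and 1 higher. Fos, an AP-1 subunit of that list, was at 1133 and 1581 TPM in WT against 524 and 441 TPM in CTCF-KD (difference −1.47, SE 0.31, limma adjusted p = 0.585). Jun, another AP-1 subunit, was at 18.99 and 12.2 TPM in WT against 26.5 and 191 TPM in CTCF-KD (difference 2.16, SE 0.94, limma adjusted p = 0.657).

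Of 16 genes of the unfolded protein response that lie outside the PERK branch, 8 were higher without overlap and 1 was lower, with a median difference of 0.33. Creld2, an endoplasmic reticulum chaperone-like protein, was at 145 and 73.9 TPM in WT against 439 and 338 TPM in CTCF-KD (difference 1.89, SE 0.42, limma adjusted p = 0.585). Sdf2l1 was at 130 and 88.3 TPM against 434 and 255 TPM, and Calr, the chaperone calreticulin, at 274 and 218 TPM against 421 and 462 TPM. Creld2 had reads in 11 and 6 cells of the WT cultures and in 23 and 21 of the CTCF-KD cultures, which also had more genes detected per cell. Without the culture labelled shCTCF #2 the count of higher genes was 8, beside 31.3% of all genes under that condition. With the mean of log2 values the median of the list was 0.60, while that of all genes tested also rose, from 0.04 to 0.23. The 15 eIF2 alpha kinases, phosphatase subunits and eIF2B subunits were split, with 5 lower and 4 higher, Ppp1r15a among the lower ones. Eif2b3 and Eif2b4, subunits of the eIF2B exchange factor, had differences of 1.54 and 1.502 (limma adjusted p = 0.597 and 0.610). Of 8 mitochondrial stress chaperones and proteases, 2 were lower and 3 higher, and of 5 tested paralogs of the 10 genes, 2 were lower and 1 higher.

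**Figure D4:**
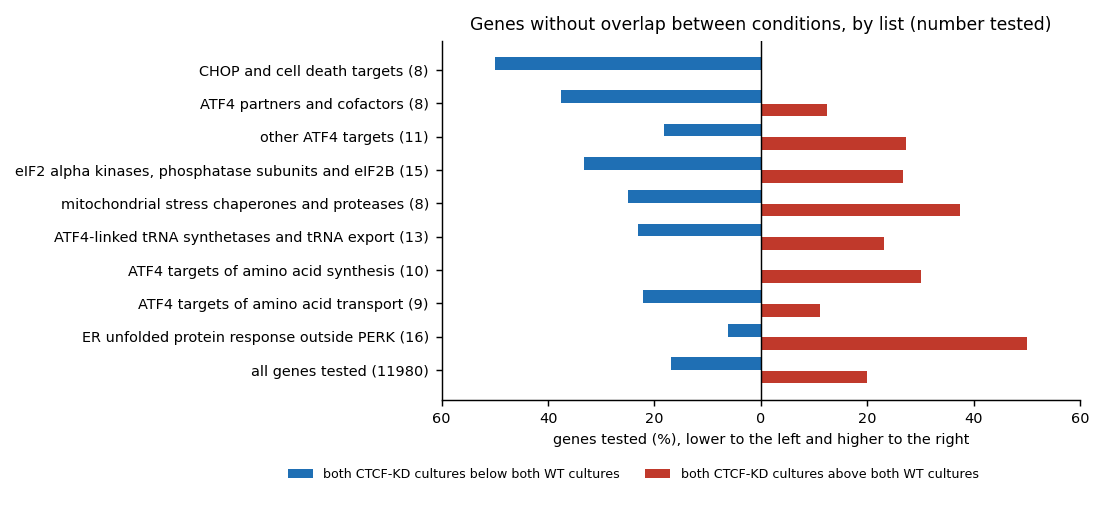
The bars give the percentage of the tested genes of each list, with their number in brackets, whose 2 CTCF-KD cultures were both below (left) or both above (right) the 2 WT cultures. Among all genes tested these shares were 16.9% and 19.9%, the list linked to CHOP and cell death has 4 of 8 genes on the left, and the unfolded protein response list has 8 of 16 on the right.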

How the data were processed

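The authors aligned single-cell reads to GRCm38 with STAR, counted them per gene with HTSeq and deposited TPM values, scaled by transcript length and cell total, for 96 cells. No molecular identifiers are described. The exact binomial intervals cover the sampling of cells within a culture and leave out differences between cultures. The members and gene lists were chosen with earlier results of these data known. Cells under 3000 genes were left out (1 cell, with 81 genes). Whole reads were recovered from the TPM as the common step of each gene, with a factor per cell, and 504524 of 504524 values came out whole within 0.001. Simulated reads showed that this check cannot see a cell factor wrong by a whole multiple, so a correction for cells whose reads nearly all share a divisor was added after the data were seen. It changed no cell here. The step of 1336 genes read in 1 cell could not be checked across cells. Reads were used for depth and for thinning to 80000 reads per cell, and no count model was fitted.

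The culture was the replicate, with 2 against 2, for which an exact permutation test cannot give a p below 0.333. The log2(mean TPM + 1) of each culture was tested with limma 3.58.1 (R 4.3.3) and its trend option, for genes above 1 on the log2(TPM + 1) scale in 2 or more cells, with Benjamini-Hochberg adjustment at 0.05, and the code was tested on simulated data. Fold changes of TPM are ratios of culture means. The culture number pairs the samples, since the study's methods give an initial and a second knockdown experiment. Deviations of same-numbered cultures from their condition means had r = 0.175 over 11980 genes. The main fit left this pairing out, so its SEs include differences between the experiments. A fit with the pairing was run as an alternative and is given in the last section. Genes named are the members, Ctcf, genes of each list chosen by the size of the limma statistic (up to 3, as none passed the threshold), and the 3 most similar genes of each widely detected member. Coordinates of genes are from GENCODE M21 on GRCm38 and promoters from RefSeq.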

Additional observations from a re-analysis of the deposited data

Results flagged for a closer look

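Opposite directions in the 2 experiments drew attention to 3 genes, and in each case the difference between the experiments was not tested, with 1 culture per condition and experiment. Trib3 differed by −2.88 on the log2 scale in experiment 1 and by 0.81 in experiment 2. Asns differed by −0.30 in experiment 1 and by 0.34 in experiment 2. Ctcf, the targeted gene, differed by −1.85 in experiment 1 and by 0.27 in experiment 2.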

How the results depend on the processing

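The count of genes called was 0 in both directions in the main test and with another pseudocount, other gene filters, all 96 cells, centred cultures, the highest cell of each culture removed, and each culture left out in turn (range 0 to 0). With the mean of log2(TPM + 1) over cells, limma called 44 genes higher and 2 lower, and with cells as replicates, which are not independent, 1280 higher and 123 lower. Neither setting called Atf4, Ddit3, Chac1, Trib3, Ddit4 or Asns. The paired fit, with the replicate block, called 0 genes and changed no call. Its limma adjusted p was 0.198 for Ddit3, 0.245 for Atf4 and 0.245 for Chac1, all lower than in the main test. For Ddit4, Trib3 and Asns it was 0.647, 0.701 and 0.981. The median difference of the ATF4 target lists was 0.16 in the main test, 0.72 with the mean of log2 values, 0.72 with cells as replicates, and −0.12 to 0.20 with 1 culture left out. The main scale weights cells with high values, while the mean of log2 values weights cells with and without reads more evenly. The count of 3 of 6 genes with both CTCF-KD cultures below both WT cultures was 3 to 5 with 1 culture left out, an alternative chosen after seeing the data, for which 26.6 to 37.9% of all genes met the condition. With 1 culture left out, Trib3 ranged from −3.18 to 1.11, Ddit4 from −2.15 to 0.11 and Asns from −0.19 to 0.22. Such a fit leaves 1 condition with a single experiment, so it mixes differences between conditions with differences between experiments. Of 78 alternatives for the 6 genes other than Sesn2 and Fgf21, 74 kept the direction and stayed above the adjusted threshold. The 4 that turned the direction all had 1 culture left out. The other gene filters and the replicate block cannot change the difference of a gene, so their directions were fixed in advance. The count of 74 is therefore no measure of robustness. Fgf21, which rests on 1 cell per WT culture, was at 0 without the highest cell of each culture. Cells held 216043 reads on average, and means of genes read in few cells rest on those cells.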
